A study of Mus musculus with 12 samples.

Results

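Stress granules are assemblies of untranslated messenger RNA and RNA-binding proteins that form in the cytoplasm when translation initiation stops, most often after phosphorylation of the initiation factor eIF2. G3BP1 and its paralog G3BP2 are the scaffold of these granules: they bind RNA and condense with it. Caprin1, USP10 and UBAP2L bind G3BP directly, Caprin1 favouring and USP10 opposing condensation, and TIA1, TIAL1, ATXN2, PABPC1 and FMR1 are RNA-binding proteins that are recruited to the granules or help to form them. The genes of these 10 proteins were chosen by name from the 54532 genes of the deposited expression table. All 10 had 1 row each, and 9 of them reached the mean of 1 FPKM (read fragments scaled to gene length and library depth) that was required for testing. The limit left 9743 genes in all, and Tia1 did not reach it.

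The libraries were made from primary hepatocytes, the parenchymal cells of the liver, of 6-week-old mice. The control genotype is labelled Flox (G3bp1-Flox) and the other HKO, a knockout of G3bp1 specific to hepatocytes. Cells of each genotype were treated with BSA or with PA, which gave 4 groups of 3 libraries, 2 of each genotype. The study asked how G3BP1 acts in NASH, a fatty liver disease with inflammation. The labels spell out neither BSA nor PA, and the dose, the duration, the strain, the Cre driver and the deleted exons were not stated in the labels. Nothing in the labels says whether the libraries of a group came from separate mice or cultures, so the p-values measure the spread between these libraries, which may be technical.

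The libraries held 15020982 to 18418586 reads assigned to genes. All 8 hepatocyte markers examined were above 1 FPKM in the mean of every group, and their summed level ran from 7072 to 8309 FPKM in Flox and from 9443 to 19812 FPKM in HKO. The 12 Kupffer cell and macrophage markers summed to 1564 to 1936 FPKM in the Flox libraries and to 79.4 to 147.2 FPKM in the HKO libraries, and 12 of 12 fell in HKO with either treatment. The 5 neutrophil markers went from 17.2 to 25.6 FPKM in Flox to 0.208 to 0.738 FPKM in HKO, and the 8 endothelial markers from 16.4 to 21.4 FPKM to 10.8 to 13.6 FPKM. The 7 lymphocyte markers went from 0.948 to 2.34 FPKM in Flox to 0.0108 to 0.0811 FPKM in HKO, and the 8 stellate cell and fibroblast markers from 0.467 to 0.812 FPKM to 0.227 to 0.364 FPKM. The 5 cholangiocyte markers summed to 7.85 to 9.20 FPKM in HKO and 4.17 to 4.83 FPKM in Flox. Of these 5, 4 had a mean under 1 FPKM in both Flox groups and in HKO with BSA, and 3 in HKO with PA. The 1 marker tested rose in HKO with either treatment. In each HKO group 1 marker was at 0 in all 3 libraries, and in Flox none was. In bulk RNA, fewer cells of a type and less RNA per cell cannot be told apart. One library stood apart on technical measures: in HKO with PA, library 1, ribosomal protein genes took 8.69% of reads, against 5.24% to 6.70% in the other 11, and its deviations from the mean of each gene fell with gene length (Spearman correlation across genes of -0.45, against -0.22 to 0.36 in the others). That correlation was positive in all 6 Flox libraries and negative in 5 of the 6 HKO libraries, and mitochondrial genes took 2.21% to 4.34% of reads in Flox and 4.10% to 8.20% in HKO. The marker sums, the mitochondrial share and the length trend move with the genotype, and their part in the genotype results was not tested. Where leaving out library 1 ended a call or moved a called difference over 1.5 times, the value without it is given.

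The starts of 5 of the genes are shown here: G3bp1 and G3bp2 as the targeted gene and its paralog, and Usp10, Ubap2l and Atxn2 as 3 genes whose levels varied together. No result below rests on these sequences, and their part in the levels was not tested. RefSeq promoter windows of build GRCm38.p6 were found for 9 of the 10 genes. Each line gives, 5′ to 3′ on the strand of the gene, 140 bases before the annotated start and the first 10 bases from it. Capitals mark matches, on either strand, to 4 short motifs: the E-box CACGTG, the CCAAT box, the GC box GGGCGG and the TATA box TATAAA. The windows are chr11:55469612-55469761 (plus strand), chr5:92083589-92083738 (minus), chr8:119910220-119910369 (plus), chr3:90052506-90052655 (minus) and chr5:121711469-121711618 (plus).
G3bp1: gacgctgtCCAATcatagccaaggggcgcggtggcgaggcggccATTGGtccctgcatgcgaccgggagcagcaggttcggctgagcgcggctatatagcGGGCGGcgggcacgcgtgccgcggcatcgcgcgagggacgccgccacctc
G3bp2: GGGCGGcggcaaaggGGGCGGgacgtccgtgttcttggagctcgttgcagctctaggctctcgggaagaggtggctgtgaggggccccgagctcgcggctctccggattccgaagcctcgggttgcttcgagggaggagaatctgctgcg
Usp10: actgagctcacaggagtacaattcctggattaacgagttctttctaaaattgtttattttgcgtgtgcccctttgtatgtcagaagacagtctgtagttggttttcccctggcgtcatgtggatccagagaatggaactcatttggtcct
Ubap2l: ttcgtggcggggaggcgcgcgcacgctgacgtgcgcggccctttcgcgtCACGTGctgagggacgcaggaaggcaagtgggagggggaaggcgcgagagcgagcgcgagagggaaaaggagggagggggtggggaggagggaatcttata
Atxn2: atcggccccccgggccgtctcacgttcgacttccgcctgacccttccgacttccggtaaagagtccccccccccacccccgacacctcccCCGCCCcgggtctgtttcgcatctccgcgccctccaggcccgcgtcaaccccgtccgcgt
In the full windows of 300 bases, CCAAT matched 3 times at G3bp1 and 1 time at G3bp2, and GGGCGG matched 1 and 2 times. Across all 32851 windows of that length, 37.4% held CCAAT, 35.7% GGGCGG, 13.6% TATAAA and 7.15% CACGTG. No motif matched in all 3 of the genes that varied together: Ubap2l had 3 matches of CACGTG and 5 of GGGCGG, Atxn2 had 1 and 2, and Usp10 had none of the 4. The Usp10 window also differed in composition, with 48.3% G and C and 8 CG pairs, against 68.7% and 36 at Ubap2l and 74.3% and 39 at Atxn2 (median of all windows, 52.7% and 7). A match describes letters only and is not evidence of binding.

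In Flox hepatocytes with BSA the 10 genes spanned 3 orders of magnitude per length. Pabpc1, which encodes the major cytoplasmic poly(A)-binding protein, had the highest level at 237.1 ± 2.29 FPKM (SD, n = 3). G3bp1 followed at 41.2 ± 4.11 FPKM, then Usp10 at 19.3 ± 1.44, Caprin1 at 10.6 ± 1.93, Tial1 at 6.36 ± 0.257, Ubap2l at 4.28 ± 0.220, Atxn2 at 2.50 ± 0.0818, G3bp2 at 2.07 ± 0.280, Fmr1 at 1.19 ± 0.285 and Tia1 at 0.219 ± 0.0158 FPKM. No neighbours in this order overlapped between libraries. With PA the order in Flox was the same, and Tial1 and Ubap2l overlapped. In HKO with BSA G3bp1 moved from the second to the third place, where it overlapped with Caprin1, and Atxn2 overlapped with G3bp2. In HKO with PA each neighbouring pair from Usp10 through Caprin1 and G3bp1 to Tial1 overlapped, as did those from G3bp2 through Atxn2 to Fmr1.

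**Figure D1:**
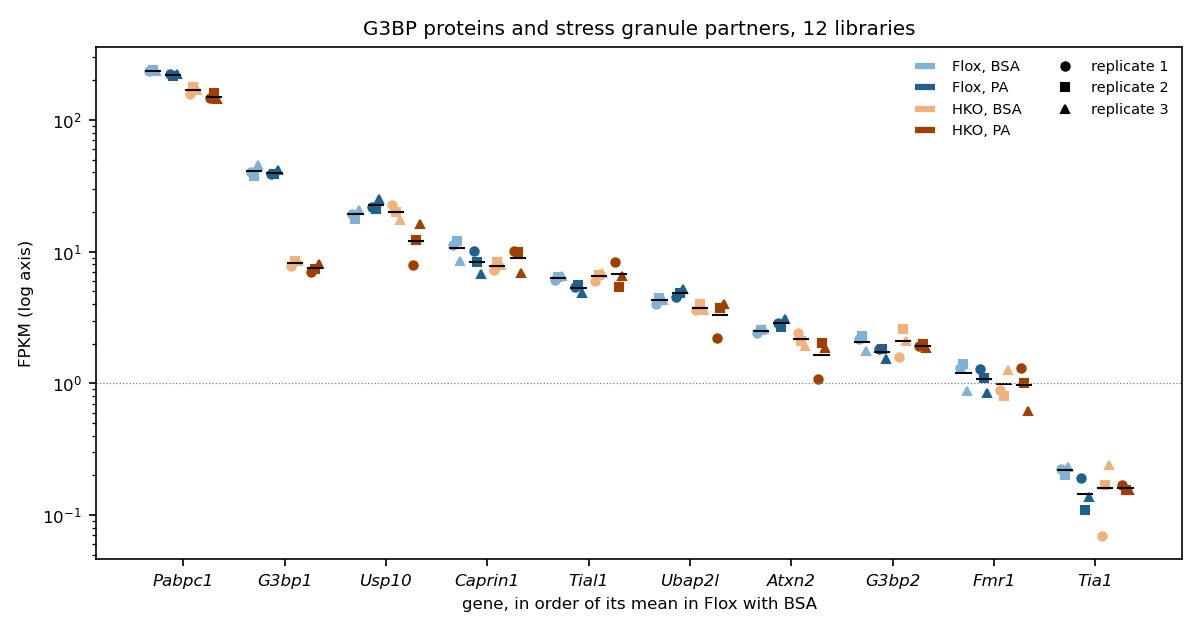
Level of the 10 genes in FPKM (log axis) in each of the 12 libraries, by gene on the horizontal axis, with colours for the 4 groups, symbols for the replicate number and a black bar for the group mean. The dotted line marks 1 FPKM: Tia1 lies below it in every library, and the G3bp1 points fall from 37.7 FPKM or more in Flox to 8.50 FPKM or less in HKO.

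The order depends on which gene length the level is divided by. The table's length equals the union of all annotated exons (GENCODE M21), and the longest coding transcript covers 94.9% of it for G3bp1 but 38.98% for Usp10 and 21.8% for Ubap2l. Divided by that transcript instead, an alternative chosen after the data were seen, Usp10 stood at 49.5 ± 3.70 and G3bp1 at 43.4 ± 4.33 FPKM in Flox with BSA, and Ubap2l rose in rank from the sixth to the fourth place at 19.6 ± 1.01 FPKM. In both HKO groups G3bp1 then ranked sixth, at 8.69 ± 0.435 FPKM with BSA and 7.91 ± 0.569 FPKM with PA. The FPKM ratio of 1 gene between groups does not depend on the length. The tests below use log2(FPKM + 1), where the length changes the size of a difference. They were not rerun with the other length.

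G3bp1 (ENSMUSG00000018583, chr11:55469685-55504838, plus strand, GRCm38) was the targeted gene. In Flox with BSA its 3 libraries had 40.02, 37.7 and 45.7 FPKM, and in Flox with PA 39.1, 38.97 and 41.6 FPKM. In HKO with BSA they had 7.77, 8.48 and 8.50 FPKM, and in HKO with PA 7.03, 7.39 and 8.09 FPKM. All 6 HKO libraries lay below all 6 Flox libraries, with 667 reads or more in each. The HKO mean was 20.04% of the Flox mean with BSA and 18.8% with PA. On the log2(FPKM + 1) scale used for every test here, which understates the change of low genes, G3bp1 fell by 2.19 with BSA (SE 0.12, adjusted p = 3.5e-09) and by 2.27 with PA (SE 0.12, adjusted p = 3.31e-09). The level counts reads over the whole gene, from deleted and kept exons and from any cell in the preparation, so it is not a measure of the share of recombined hepatocytes. The macrophage markers, which come from cells outside the deletion's stated target, were also lower in HKO, and their part in the G3bp1 difference was not tested.

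The 5 tested genes whose log2 levels followed G3bp1 most closely over the 12 libraries were Fgr, Ptpn6, Csf1r, Fcgr1 and Vav1, with Pearson correlations of 0.996 to 0.997. Csf1r, which belongs to the macrophage list, had 58.2 to 75.9 FPKM in Flox and at most 3.32 FPKM in HKO. All 5 were lower in every HKO library than in any Flox library, as G3bp1 was. The correlations describe that shared split without a test, and its cause was not tested.

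G3bp2 (ENSMUSG00000029405, chr5:92052146-92083719, minus strand), which can sustain granule assembly in cells that lack G3BP1, did not pass the test in any comparison. The Flox libraries had 2.16, 2.29 and 1.75 FPKM with BSA and 1.82, 1.83 and 1.52 FPKM with PA. The HKO libraries had 1.59, 2.58 and 2.09 FPKM with BSA and 1.93, 1.99 and 1.86 FPKM with PA. With PA the 3 HKO libraries lay just above the 3 Flox libraries, and with BSA the genotypes overlapped. The HKO minus Flox difference was 0.00 with BSA (95% interval -0.28 to 0.28, adjusted p = 0.99998) and 0.10 with PA (-0.18 to 0.38, adjusted p = 0.563). The data are compatible with any difference within these intervals. A lincRNA on the opposite strand, Gm26582, covers 23.7% of the G3bp2 exon bases, and it was listed at a mean of 0.0044 FPKM. The strand setting of the counting was not stated in the labels.

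With G3bp1 lower and G3bp2 within its spread, the FPKM ratio of the pair was lower in HKO. G3bp1 is the targeted gene, so this direction was fixed by the design and is not a separate result. The G3bp1 reads left in HKO may come from kept exons or other cells, so the ratio is not one of intact transcripts. G3bp1 exceeded G3bp2 20.4 ± 5.05 fold in Flox with BSA and 23.4 ± 3.45 fold in Flox with PA (ratio of FPKM, SD, n = 3). In HKO the ratio was 4.08 ± 0.797 with BSA and 3.91 ± 0.388 with PA. The lowest Flox ratio was 16.5 and the highest HKO ratio 4.88. The summed level of both genes was 43.2 ± 3.83 and 41.6 ± 1.34 FPKM in Flox and 10.3 ± 0.872 and 9.42 ± 0.500 FPKM in HKO, and G3bp2 made up 4.85% and 4.16% of the sum in Flox and 20.02% and 20.5% in HKO. Divided by the longest coding transcript, the ratios were 10.5 and 12.03 in Flox and 2.10 and 2.01 in HKO, so the fold between the paralogs depends on the annotated length while its drop between genotypes does not.

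**Figure D2:**
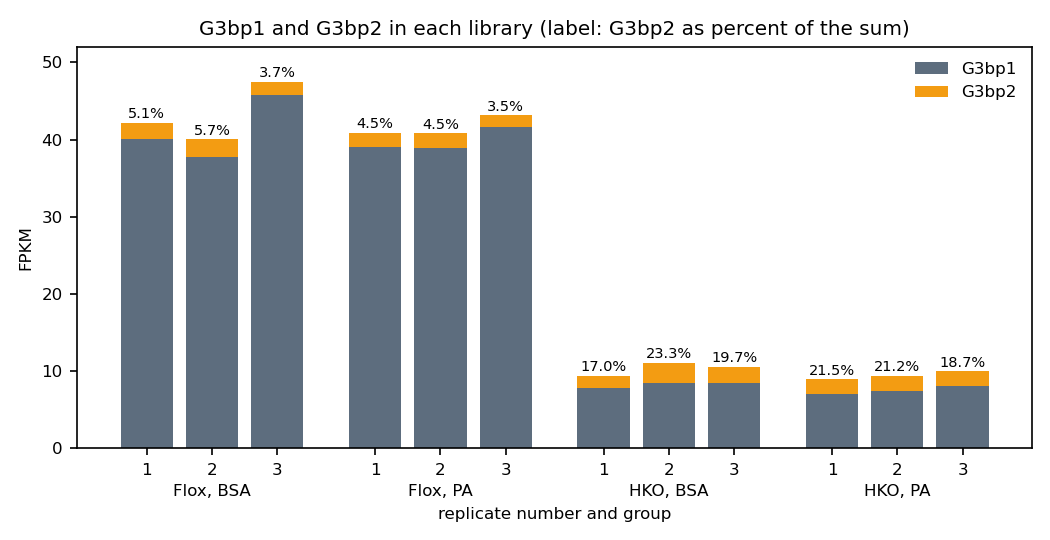
Level of G3bp1 (grey) and G3bp2 (orange) in FPKM, stacked, in each of the 12 libraries by group and replicate number, with the share of G3bp2 in the sum printed above each bar. The orange part stays between 1.52 and 2.58 FPKM while the grey part drops from at least 37.7 FPKM in Flox to at most 8.50 FPKM in HKO.

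Between the genotypes, the changes among the other genes were decreases, and more of them passed the test with PA than with BSA. In HKO against Flox with BSA, 2 of the 9 tested genes fell, G3bp1 and Pabpc1, and none rose. Of all 9743 genes tested, 20.5% passed in this comparison, with 9.63% rising and 10.8% falling. With PA, 5 of the 9 fell, G3bp1, Usp10, Atxn2, Pabpc1 and Ubap2l, and none rose, where 35.7% of all genes passed, with 16.9% rising and 18.8% falling. The median difference of the 9 genes was -0.15 with BSA and -0.47 with PA (without G3bp1, -0.15 and -0.28), and that of all genes 0.04 and 0.00. Groups did not overlap in 4 of the 9 with BSA (G3bp1, Pabpc1, Caprin1 and Ubap2l), all lower in HKO, where 18% of all genes were lower without overlap. With PA the 5 genes that fell did not overlap and G3bp2 was higher without overlap, against 26% of all genes lower and 26% higher. G3bp1 is the targeted gene, so its decrease in the counts of this paragraph was fixed by the design. Among the other 8 tested genes, Pabpc1 fell with BSA, and Usp10, Atxn2, Pabpc1 and Ubap2l fell with PA. Without library 1 of HKO with PA, 4 of the 9 genes fell, Ubap2l no longer passing, and 13.5% of all genes fell. The 2 genotype comparisons have no library in common, but they share 1 estimate of the spread of each gene, from the fit over all 12 libraries. The labels do not say whether cells of the same mice received both treatments. The 2 comparisons are therefore not shown to be independent. The libraries of HKO with PA also enter the comparison of PA with BSA in HKO and the interaction, so those results are not independent of the genotype comparison with PA. Whether a gene's difference changed with PA was tested as the interaction described further on.

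**Figure D3:**
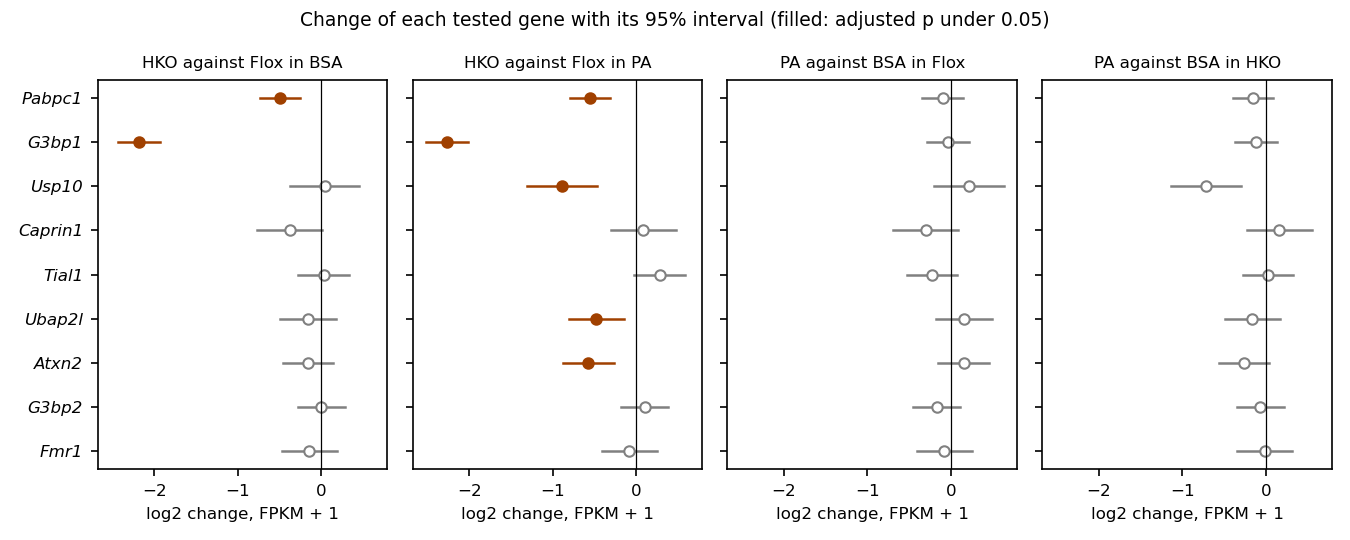
Difference in log2(FPKM + 1) with its 95% interval for each of the 9 tested genes in 4 comparisons, 1 panel each, with filled points for an adjusted p under 0.05. Filled points appear at G3bp1 and Pabpc1 with BSA and at G3bp1, Pabpc1, Usp10, Ubap2l and Atxn2 with PA, all left of 0, and none in the 2 panels of PA against BSA.

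Among the proteins that bind G3BP, Usp10 (ENSMUSG00000031826, chr8:119910360-119957560, plus strand) encodes a deubiquitinase. It had 19.2, 17.9 and 20.8 FPKM in Flox with BSA, 21.9, 20.9 and 24.9 FPKM in Flox with PA and 22.5, 19.95 and 17.4 FPKM in HKO with BSA. In HKO with PA its libraries had 7.996, 12.3 and 16.1 FPKM. Every library of HKO with PA was below every other library of the study, and the 3 differed among themselves more than those of any other group. Usp10 fell by 0.89 in HKO against Flox with PA (SE 0.19, adjusted p = 0.0035), to 53.8% of the Flox mean, and by 0.64 without library 1 (adjusted p = 0.00789). With BSA the difference was 0.04 (95% interval -0.38 to 0.46, adjusted p = 0.914).

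Ubap2l (ENSMUSG00000042520, chr3:90000140-90052628, minus strand) encodes a ubiquitin-associated protein that acts upstream of or together with G3BP in granule assembly. The Flox libraries had 4.04, 4.48 and 4.32 FPKM with BSA and 4.56, 4.86 and 5.25 FPKM with PA. The HKO libraries had 3.59, 4.01 and 3.61 FPKM with BSA and 2.21, 3.73 and 3.996 FPKM with PA. Library 1 of HKO with PA was far below the other 2, which lay within the range of HKO with BSA. Ubap2l fell by 0.47 in HKO against Flox with PA (SE 0.15, adjusted p = 0.0285), to 67.7% of the Flox mean. Without library 1 the difference was -0.27 and did not pass (adjusted p = 0.0917), and with a length trend removed it was -0.26 (adjusted p = 0.114). The call was also lost without library 2 or library 3 of Flox with PA (adjusted p of 0.0731 and 0.0998). With BSA it was -0.16 (SE 0.15, adjusted p = 0.528), although every HKO library lay below every Flox library. The gene shares 28 exon bases, 0.150% of its own, with 4933434E20Rik on the opposite strand.

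Caprin1 (ENSMUSG00000027184, chr2:103762941-103797649, minus strand), the partner that favours condensation, passed in no comparison. It had 11.2, 12.2 and 8.44 FPKM in Flox with BSA and 10.2, 8.33 and 6.72 FPKM in Flox with PA. In HKO it had 7.23, 8.39 and 7.97 FPKM with BSA and 10.1, 10.03 and 6.84 FPKM with PA. Library 3 was the lowest in 3 of the 4 groups. The HKO minus Flox difference was -0.38 with BSA (95% interval -0.77 to 0.01, adjusted p = 0.170) and 0.09 with PA (-0.30 to 0.48, adjusted p = 0.737).

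**Figure D4:**
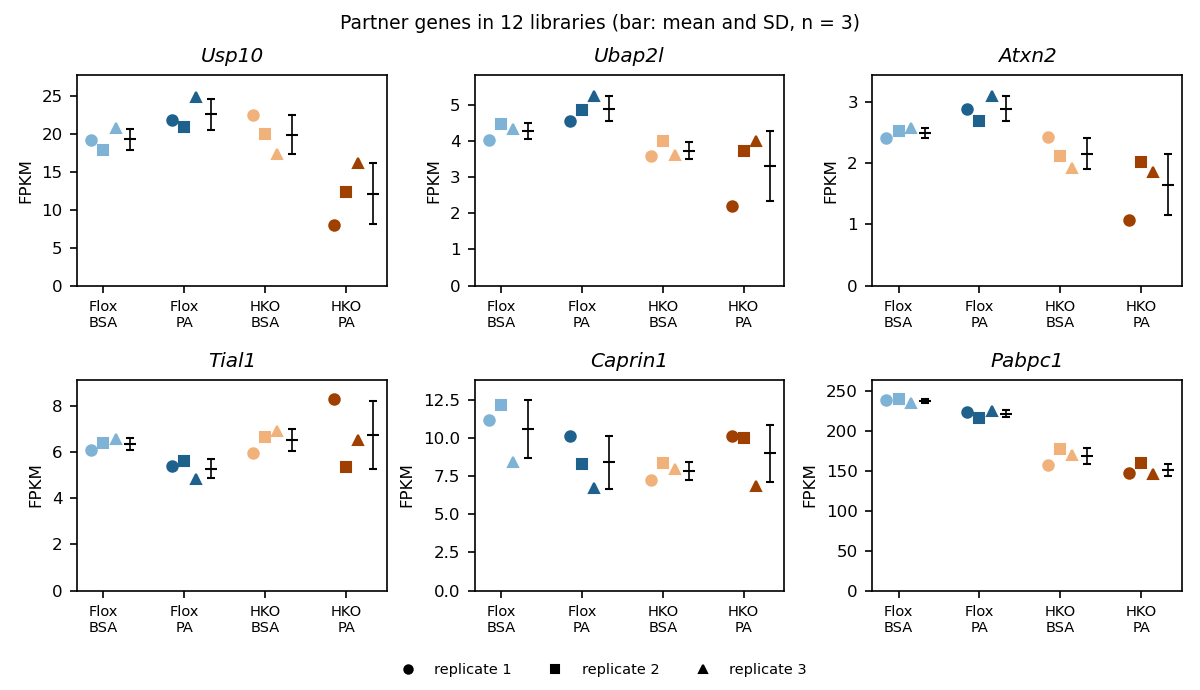
Level in FPKM of Usp10, Ubap2l, Atxn2, Tial1, Caprin1 and Pabpc1 in the 12 libraries, 1 panel a gene with its axis from 0, by group on the horizontal axis, with symbols for the replicate number and a bar for the mean and SD of 3 libraries. Library 1 of HKO with PA (dark orange circle) is the lowest of all for Usp10, Ubap2l and Atxn2 and the highest of all for Tial1.

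Among the other RNA-binding proteins, Pabpc1 (ENSMUSG00000022283, chr15:36595661-36609668, minus strand) had the most reads, 12918 or more in every library. It had 237.8, 238.9 and 234.5 FPKM in Flox with BSA and 222.7, 215.9 and 224.7 FPKM in Flox with PA. The HKO libraries had 157.4, 177.5 and 169.7 FPKM with BSA and 147.0, 159.9 and 145.6 FPKM with PA. No HKO library reached a Flox library of either treatment. Pabpc1 fell by 0.49 with BSA (SE 0.11, adjusted p = 0.00608), to 70.9% of the Flox mean, and by 0.55 with PA (SE 0.11, adjusted p = 0.00232), to 68.2%. Without library 1 of HKO with PA the latter was -0.53 (adjusted p = 0.00423). With reads of multigene families, counts of Pabpc1 may be shared with near-identical copies, and the labels do not state how such reads were assigned.

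Atxn2 (ENSMUSG00000042605, chr5:121711337-121816493, plus strand) encodes ataxin-2, which binds PABPC1 and messenger RNA. It had 2.41, 2.53 and 2.57 FPKM in Flox with BSA and 2.89, 2.69 and 3.10 FPKM in Flox with PA. It had 2.43, 2.11 and 1.93 FPKM in HKO with BSA and 1.082, 2.02 and 1.87 FPKM in HKO with PA. With PA the genotypes did not overlap, and with BSA they did. Atxn2 fell by 0.57 in HKO against Flox with PA (SE 0.14, adjusted p = 0.007), to 57.2% of the Flox mean, and by 0.40 without library 1 (adjusted p = 0.0195). With BSA the difference was -0.15 (95% interval -0.45 to 0.15, adjusted p = 0.496). It shares 99 exon bases, 0.631% of its own, with Sh2b3 on the opposite strand.

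Tial1 (ENSMUSG00000030846, chr7:128439777-128461717, minus strand) and Tia1 (ENSMUSG00000071337, chr6:86404219-86433405, plus strand) encode paralogous translational silencers whose prion-like domains drive their recruitment. Tial1 had 6.08, 6.41 and 6.59 FPKM in Flox with BSA and 5.42, 5.63 and 4.83 FPKM in Flox with PA. In HKO it had 5.98, 6.66 and 6.93 FPKM with BSA and 8.30, 5.37 and 6.55 FPKM with PA. The genotypes overlapped with both treatments, and library 1 of HKO with PA was the highest of the 12. The HKO minus Flox difference was 0.03 with BSA (95% interval -0.27 to 0.33, adjusted p = 0.912) and 0.28 with PA (-0.02 to 0.59, adjusted p = 0.130), and the latter passed without library 2 of HKO with PA (0.42, adjusted p = 0.0433). Tia1 had 0.0695 to 0.239 FPKM, or 17 to 68 reads, in the 12 libraries. In a fit without the filter on low values its adjusted p was 0.427 or more in each of the 5 comparisons. The log2(FPKM + 1) scale compresses differences at such levels, so that fit could hardly detect one in Tia1. In Flox its level with PA was 66.6% of that with BSA, without overlap. That was a difference of -0.09 in the same fit (SE 0.0485, adjusted p = 0.522).

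Fmr1 (ENSMUSG00000000838, chrX:68678541-68717963, plus strand) encodes FMRP, a repressor of translation. It stood near the limit for testing, at 1.30, 1.41 and 0.872 FPKM in Flox with BSA and 1.29, 1.09 and 0.843 FPKM in Flox with PA. The HKO libraries had 0.898, 0.806 and 1.25 FPKM with BSA and 1.30, 1.01 and 0.620 FPKM with PA. All 4 groups overlapped, with 84 to 236 reads in a library. The HKO minus Flox difference was -0.14 with BSA (95% interval -0.47 to 0.19, adjusted p = 0.570) and -0.08 with PA (-0.41 to 0.25, adjusted p = 0.713).

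None of the 9 tested genes passed in PA against BSA. In Flox, 0 of 9 passed by limma, where 2.21% of all genes did, and 0 had an unadjusted p under 0.05, as 15.9% of all genes had. Groups did not overlap for 5 of the 9: Tial1 and Pabpc1 were lower with PA and Usp10, Ubap2l and Atxn2 higher, against 16.9% of all genes lower and 22.1% higher without overlap. The differences of these 5 ran from -0.23 for Tial1 to 0.22 for Usp10 (adjusted p of 0.436 to 0.676). In HKO, 0 of 9 passed, where 2.94% of all genes did, and 1 had an unadjusted p under 0.05, as 20.8% of all genes had. That gene was Usp10, whose level with PA was 60.9% of that with BSA (difference -0.71, SE 0.19, adjusted p = 0.0671), and it alone did not overlap, where 9.1% of all genes were lower without overlap. Without library 3 of HKO with PA the difference in Usp10 passed, at -0.93 (adjusted p = 0.0115), and without library 1 it was -0.46 (adjusted p = 0.176). G3bp1 itself differed with PA by -0.04 in Flox (95% interval -0.29 to 0.21) and by -0.12 in HKO (-0.37 to 0.13).

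Whether PA acted differently in the 2 genotypes was tested as an interaction, the difference with PA in HKO minus that in Flox. None of the 9 genes passed (0 of 9, where 0.267% of all genes did), and 1 had an unadjusted p under 0.05, as 17.4% of all genes had. Usp10 had the largest interaction of the 9, -0.93 (SE 0.27, adjusted p = 0.141), and it passed without library 3 of HKO with PA (-1.15, adjusted p = 0.0334) but not without library 1 (-0.68, adjusted p = 0.168). The next were Caprin1 at 0.46 (adjusted p = 0.351) and Atxn2 at -0.42 (adjusted p = 0.291). Decreases of Usp10, Atxn2 and Ubap2l that passed with PA and not with BSA are therefore not shown to differ between the treatments.

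Across the 12 libraries Usp10, Ubap2l and Atxn2 varied together. The Pearson correlations of their log2 levels were 0.848 for Usp10 and Ubap2l, 0.911 for Usp10 and Atxn2 and 0.931 for Ubap2l and Atxn2, and of their deviations from the group means 0.832, 0.868 and 0.853. Tial1 went the opposite way, at -0.82 with Atxn2 and -0.91 for the deviations. Caprin1 and Fmr1 correlated with each other at 0.798 and, for the deviations, 0.843. They too ran against Usp10, at -0.36 and -0.26 over the libraries and at -0.68 and -0.83 for the deviations. With Ubap2l and Atxn2 the deviations correlated at -0.44 and -0.37 for Caprin1 and at -0.66 and -0.60 for Fmr1. G3bp1 and Pabpc1 correlated at 0.962 over the libraries and at 0.122 within groups, so their likeness was that of the genotypes. These are descriptions over 12 libraries that share depth, composition and the trend with gene length named above. Library 1 of HKO with PA was the lowest of the 12 for Usp10, Ubap2l and Atxn2 and the highest for Tial1. Correlations without it were not computed. The 5 genes closest to G3bp2 were Map2k4, Gfpt1, Arcn1, Ncoa4 and Pdxdc1, with correlations of 0.893 to 0.908.

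Of 6 paralogs of these genes, 5 were tested and 3 fell in HKO with PA, where 18.8% of all genes fell. In HKO against Flox with PA, Ubap2, the paralog of Ubap2l, fell by 0.79 (SE 0.22, adjusted p = 0.0155), Atxn2l fell by 0.64 (SE 0.17, adjusted p = 0.0114) and Pabpc4, a second cytoplasmic poly(A)-binding protein, fell by 0.58 (SE 0.15, adjusted p = 0.00968). Ubap2 had 24.8, 24.0 and 30.8 FPKM in Flox with PA and 8.97, 17.9 and 19.95 FPKM in HKO with PA. Atxn2l had 23.4, 24.3 and 27.8 FPKM against 11.5, 17.8 and 19.1 FPKM. Library 1 of HKO with PA was again the lowest, and without it Ubap2 fell by 0.46, Atxn2l by 0.43 and Pabpc4 by 0.41 (adjusted p of 0.0336, 0.034 and 0.0289). Without library 3 of Flox with PA neither Ubap2 nor Atxn2l passed (adjusted p of 0.0701 and 0.0541). With PA the genotypes did not overlap for these 2 genes or for Pabpc4, where 26% of all genes were lower without overlap. With BSA Pabpc4 was also lower in HKO without overlap (83.1 to 90.4 FPKM, and 99.6 to 111.2 FPKM in Flox), where 18% of all genes were. Fxr1 and Fxr2, the paralogs of Fmr1, differed by 0.19 and -0.25 and did not pass (adjusted p of 0.581 and 0.254), although Fxr2 did without library 3 of HKO with PA (-0.43, adjusted p = 0.0377). With all libraries, none of these 5 passed with BSA, in PA against BSA or in the interaction. Without both HKO libraries numbered 1, Atxn2l and Pabpc4 passed with BSA (adjusted p of 0.0211 and 0.0295), and without library 3 of HKO with PA, Ubap2 and Pabpc4 passed in PA against BSA in HKO (adjusted p of 0.0452 and 0.035). Caprin2 was below the limit for testing, with group means of 0.0272 to 0.0735 FPKM.

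The wider cast was described by 4 lists chosen by function. Of 55 tested genes for other stress granule proteins, 9 fell and none rose in HKO with BSA, and 14 fell and 2 rose in HKO with PA. This list includes the paralogs described above, so the decreases of Ubap2, Atxn2l and Pabpc4 with PA enter both counts. Of all genes, 10.8% fell and 9.63% rose with BSA, and 18.8% fell and 16.9% rose with PA. The median difference of the list was -0.20 with BSA and -0.21 with PA, and that of all genes 0.04 and 0.00. With BSA the largest decreases were in the initiation factor subunit Eif3a (43.8 ± 10.4 FPKM in Flox and 19.6 ± 2.03 in HKO, difference -1.09, adjusted p = 0.00194), Taf15 (-0.84), Cpeb4 (-0.73) and Nufip2 (-0.71). With PA they were in Prrc2a (32.2 ± 4.58 and 15.4 ± 7.40 FPKM, difference -1.13, adjusted p = 0.00892), Prrc2b (-0.93), the splicing regulator Ptbp1 (-0.89) and Ubap2 (-0.79), while the cold-inducible Rbm3 rose by 0.52 and the helicase Eif4a1 by 0.46. Without library 1 of HKO with PA, 8 genes of this list fell and 1 rose with PA, where 13.5% of all genes fell and 11.2% rose. Prrc2a then fell by 0.70 (adjusted p = 0.0138), while Prrc2b, at -0.51, and Eif4a1, at 0.37, no longer passed (adjusted p of 0.0641 and 0.122). Without both HKO libraries numbered 1, 18 fell with BSA and 14 with PA, with 17.1% and 19.3% of all genes falling. In PA against BSA, Zfp36, which encodes the RNA-destabilising protein tristetraprolin, rose by 0.61 in Flox (adjusted p = 0.034) and by 0.60 in HKO (adjusted p = 0.0341; without library 1 of HKO with PA, 0.63, adjusted p = 0.0526), and Eif3a fell by 0.98 in Flox (adjusted p = 0.0303). These were the only genes of the list to pass with PA. None passed in the interaction by limma, and 12 of the 55 had an unadjusted p under 0.05, as 17.4% of all genes had. Of the calls named here, those of Eif3a, Taf15, Cpeb4 and Nufip2 with BSA and of Prrc2a, Ptbp1 and Rbm3 with PA held with any 1 library of the comparison left out. Those of Prrc2b, Ubap2, Eif4a1 and Zfp36, and of Eif3a in Flox, did not pass without at least 1 library.

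Of the 14 genes for eIF2, its kinases, exchange factor and phosphatase, none passed in PA against BSA in either genotype, where 2.21% of all genes did in Flox and 2.94% in HKO. In HKO against Flox, 1 rose and 2 fell with BSA, against 9.63% and 10.8% of all genes, and 1 rose and 4 fell with PA, against 16.9% and 18.8%. In HKO with BSA the kinase gene Eif2ak3 (PERK) rose by 0.44 (1.14 to 1.92 FPKM, adjusted p = 0.0185), and Eif2ak2 (PKR) fell by 1.02 (3.17 to 1.06 FPKM, adjusted p = 0.00647) as did the phosphatase subunit Ppp1r15a by 0.45 (adjusted p = 0.0184). In HKO with PA the substrate subunit Eif2s1 rose by 0.89 (adjusted p = 0.0279) and Eif2ak2, Ppp1r15b, Eif2b4 and Ppp1r15a fell by 0.68, 0.51, 0.39 and 0.38. Without library 1 of HKO with PA, 0 of the 14 passed in either direction in that comparison, where 11.2% of all genes rose and 13.5% fell. Eif2s1 then differed by 0.63 (adjusted p = 0.129), and Eif2ak2, Ppp1r15b, Eif2b4 and Ppp1r15a by -0.55, -0.38, -0.36 and -0.31 (adjusted p of 0.141, 0.055, 0.106 and 0.0808). Of all these calls, that of Eif2ak2 with BSA held with any 1 library left out (adjusted p of up to 0.0376), and each of the others was lost without at least 1 library.

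Of 18 tested genes for processing bodies, the granules of RNA decay, 1 fell in HKO with BSA, the decapping enzyme Dcp2 (-0.42, adjusted p = 0.0392), where 10.8% of all genes fell. With PA, 4 of the 18 rose, or 22.2% against 16.9% of all genes, and 2 fell, or 11.1% against 18.8%. The 4 that rose were subunits of the Lsm ring that binds deadenylated messenger RNA: Lsm5 by 1.26 (adjusted p = 0.000296), Lsm3 by 0.77, Lsm6 by 0.72 and Lsm7 by 0.64. Lsm1, Lsm2 and Lsm4, also on the list, were not among the genes that rose. Lsm5 had 8.71, 7.09 and 5.81 FPKM in Flox with PA and 23.4, 16.8 and 15.8 FPKM in HKO with PA. The scaffold Edc4 fell by 0.85 and Limd1 by 0.65 in the same comparison. Without library 1, 3 genes rose and 1 fell, where 11.2% and 13.5% of all genes did. Lsm5 then stood at 1.09 (adjusted p = 0.00126) and Edc4 at -0.56 (adjusted p = 0.0107), while Lsm7, at 0.47, and Limd1, at -0.41, no longer passed (adjusted p of 0.140 and 0.0728). The calls of Lsm5, Lsm3, Lsm6 and Edc4 held with any 1 library left out, and those of Dcp2, Lsm7 and Limd1 did not. With a length trend removed, Lsm7 with PA, at 0.37, and Dcp2 with BSA, at -0.35, did not pass (adjusted p of 0.0985 and 0.0916).

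Of 13 tested genes for stress granule clearance, 4 rose in HKO with BSA: the autophagy-initiating kinase Ulk1 by 1.32 (adjusted p = 0.00013), the small heat shock protein Hspb1 by 1.13 (adjusted p = 0.00072), the co-chaperone Bag3 by 0.43 and Hspb8 by 0.41. In HKO with PA Hspb1 rose by 1.41 (adjusted p = 9.68e-05) and Ufd1, a cofactor of the segregase VCP, by 0.48, while Ubqln2 fell by 0.39 and Bag3 by 0.38. The 4 of 13 that rose with BSA stand against 9.63% of all genes, and the 2 that rose and the 2 that fell with PA against 16.9% and 18.8%. Hspb1 had 92.6, 83.1 and 72.8 FPKM in Flox with BSA and 83.1, 96.5 and 78.0 FPKM in Flox with PA. It had 222.9, 142.7 and 190.0 FPKM in HKO with BSA and 299.6, 211.7 and 190.2 FPKM in HKO with PA, so no HKO library overlapped with Flox. In PA against BSA, Ubqln2 rose by 0.61 (adjusted p = 0.0128) and Bag3 by 0.55 (adjusted p = 0.0494) in Flox, and Ulk1 fell by 1.04 in HKO (adjusted p = 0.0101). Ulk1 was the 1 gene of the 4 lists to pass in the interaction (-1.61, SE 0.27, adjusted p = 0.0234). Without library 1 of HKO with PA, 1 gene of this list rose and 1 fell in HKO with PA, where 11.2% and 13.5% of all genes did, and Ufd1, at 0.38, and Bag3, at -0.25, no longer passed (adjusted p of 0.148 and 0.137). The calls of Hspb1 with either treatment, of Ulk1 in HKO with BSA and of Ulk1 with PA in HKO held with any 1 library left out. The last was lost with only the groups compared in the fit (adjusted p = 0.121), with genotype and number as a replicate block (0.0813) and with no filter on low values (0.0502). Those of Bag3, Hspb8, Ufd1 and Ubqln2 and the interaction of Ulk1 were each lost without at least 1 library (adjusted p of up to 0.0824 for the interaction). Over the 4 lists, 16 of the 40 named calls held with any 1 library left out.

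**Figure D5:**
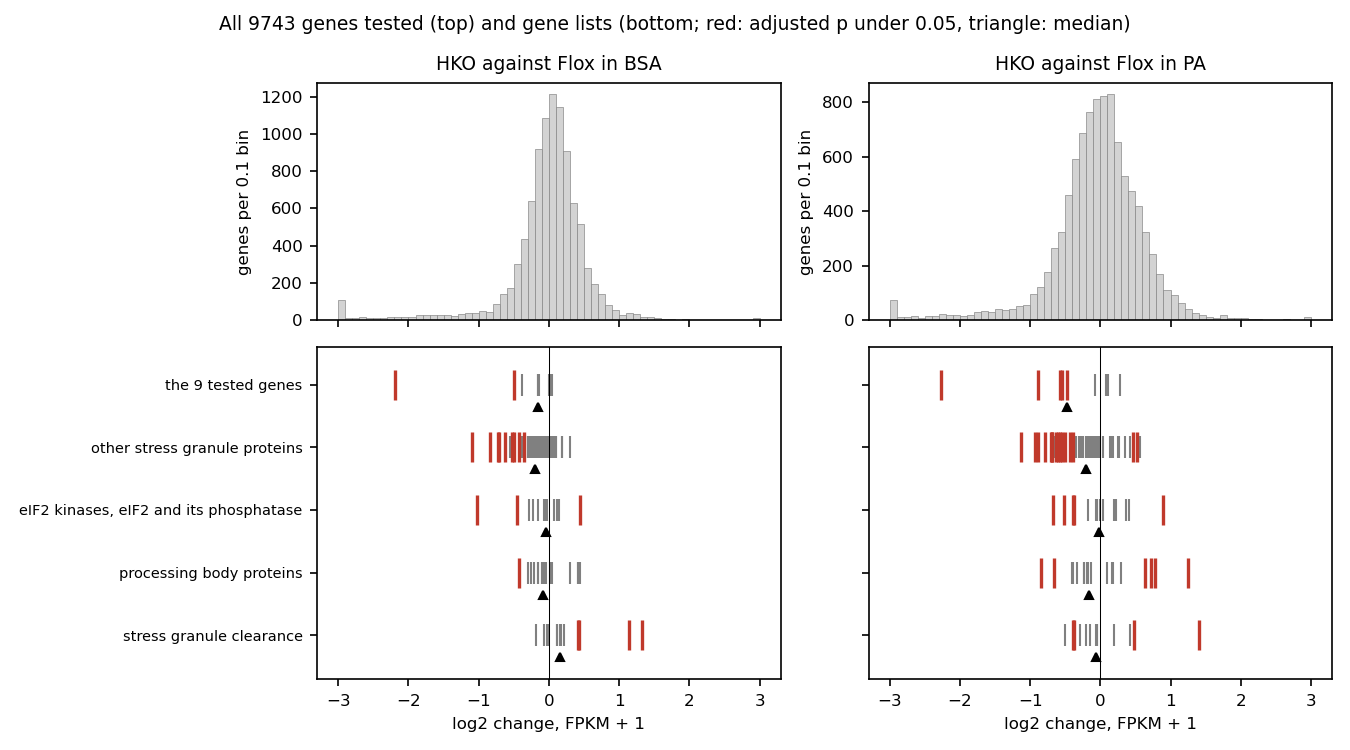
Difference in log2(FPKM + 1) between HKO and Flox with BSA (left) and PA (right): top, the number of genes per 0.1 bin among all 9743 tested, with values beyond -3 or 3 put in the end bins; bottom, 1 tick a gene for the 9 tested genes and the 4 lists, red where the adjusted p is under 0.05, with a triangle at the median. The medians of the 9 genes lie at -0.15 and -0.47, left of the peak of all genes near 0. Without G3bp1, the targeted gene, they are -0.15 and -0.28 (not drawn). The red ticks of the clearance list lie right of 0 with BSA.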

How the data were processed

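Expression was measured by RNA sequencing of 12 libraries in 4 groups of 3. Libraries were built from total RNA with a NEBNext Ultra RNA kit, per the labels' protocols. The authors deposited 1 table of FPKM values per gene with gene lengths, and the builds GRCm38 and mm10 are named in the submitters' processing notes. The labels do not state the aligner, the counter or the strand setting. FPKM times gene length came out as whole multiples of 1 step in each library (100% of values up to 1000 reads, within 0.01 read), which gave the depths and the read counts.

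FPKM was taken as log2(FPKM + 1), and genes were kept where the mean reached 1 FPKM (9743 of 54532). limma 3.58.1 in R 4.3.3 fitted 4 group means with a variance trend over all 12 libraries. Two-sided p-values were adjusted by Benjamini-Hochberg over all genes in each of 5 comparisons, with a threshold of 0.05. The fit was tested on simulated data.

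The genes and lists were chosen with earlier results of these data known. Named were all 10 genes, their paralogs, and up to 4 genes per direction, list and comparison with the largest change among those past the test. Cell type markers were summed in FPKM. Exons came from GENCODE M21 and promoters from RefSeq. Alternatives covered the pseudocount, filter, scaling, variance prior, groups fitted, replicate block, reads in place of FPKM, gene length and left-out libraries. Counting error falls as reads rise, so Tia1 and Fmr1 are the least precise.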

Additional observations from a re-analysis of the deposited data

Results flagged for a closer look

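The difference with PA in Ulk1, the kinase that starts autophagy and that also acts on VCP in granule clearance, was not the same in the 2 genotypes by the test of the interaction. The HKO difference minus the Flox difference was -1.61 on the log2(FPKM + 1) scale (SE 0.27, adjusted p = 0.0234 by limma). Ulk1 had 3.98, 4.28 and 3.86 FPKM in Flox with BSA and 5.24, 7.38 and 6.94 FPKM in Flox with PA. It had 15.01, 10.3 and 10.1 FPKM in HKO with BSA and 3.71, 5.80 and 6.15 FPKM in HKO with PA. All 3 Flox libraries with PA were above those with BSA, and all 3 HKO libraries with PA were below those with BSA. The HKO libraries with BSA were the highest of the 12. The interaction did not pass under 10 of 23 alternatives, with an adjusted p of up to 0.196 in the fit with genotype and number as a replicate block. Left out 1 at a time, any library of Flox with BSA, libraries 2 and 3 of Flox with PA and library 2 of each HKO group ended the call (adjusted p of 0.0513 to 0.0824), with the difference between -1.74 and -1.42 over all 12 such fits.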

How the results depend on the processing

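Over 24 alternative settings, 45 results of the 9 tested genes gave 817 refits, of which 808 kept the side of the threshold and the direction where they had passed, 6 lost the threshold, 3 gained it and 0 reversed. Most of the 45 had not passed in the main fit, so most of the 808 are values that again did not pass. Of these, 44 changed sign. The decreases of G3bp1 and Pabpc1 in HKO with either treatment, and of Usp10 and Atxn2 in HKO with PA, kept their call in every alternative run for them, with a highest adjusted p of 0.0327 (Pabpc1 with BSA), 0.0139 (Pabpc1 with PA), 0.0197 (Usp10) and 0.0328 (Atxn2). Ubap2l in HKO with PA lost it in 6 of 16, with an adjusted p of up to 0.114. With the filter at a mean of 5 FPKM, 3 genes fell in HKO with PA in place of 5, because Atxn2 and Ubap2l were no longer tested. With 1 library left out at a time, the number of the genes past the test was 2 to 2 in HKO with BSA, 4 to 6 in HKO with PA, 0 to 0 for PA in Flox, 0 to 1 for PA in HKO and 0 to 1 for the interaction. The 1 in the last 2 was Usp10 without library 3 of HKO with PA, and the sixth gene was Tial1, higher without library 2 of HKO with PA (adjusted p = 0.0433). The deviations of libraries with the same number correlated at -0.48 to 0.36 over the 18 such pairs. Of these, 10 were over 0.1, 3 of the 6 within a genotype and 7 of the 12 across genotypes. The numbers were not taken to pair the libraries. The correlations cannot exclude pairing, because the deviations in a group of 3 depend on each other and hold trends such as that with gene length. With the number as a replicate block, 2 genes passed in HKO with BSA and 5 with PA, and 0 for PA in Flox, PA in HKO and the interaction. Over all genes, the fit on only the groups compared called 1543 genes for PA in Flox in place of 215 and 42 for PA in HKO in place of 286, and the fit without both HKO libraries numbered 1 called 3579 in HKO with BSA in place of 1994. The cause was not tested.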
